A study of Mus musculus with 24 samples.

Results

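The response of the wild-type mouse hippocampus to 1 h of exploring a new environment was described across all genes, from 3 novelty libraries and 3 untreated libraries. These 6 libraries were taken by their group labels out of 18 libraries in the series, and every gene of the count files was considered. Adult male wild-type mice, aged 2 to 4 months and on a mixed C57 and 129 F1 background, were either left untreated or placed one at a time for 1 h in a white Plexiglas box with tubing and toys. Each library pooled hippocampal RNA from 3 mice, so the spread between libraries is a spread between pools. Another 6 libraries, labelled as Kdm5c null (KO) males of the same background and age, 3 untreated and 3 after novelty, entered the same model and are used here for the spread and for a side by side comparison. The remaining 6 libraries, from an inducible forebrain deletion line, held no novelty samples and were not used. The tissue is labelled as hippocampus, while the extraction protocol speaks of cultures.

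When a neuron fires strongly, calcium entry and kinase signalling switch on a first set of genes within minutes, without new protein synthesis. These immediate early genes code for transcription factors of the Fos, Egr and Nr4a families, which act on later genes, and for effector proteins that act at synapses or restrain the same signalling. In the hippocampus, which encodes places and contexts, exposure to a new environment is a classical trigger of this program, and handling or novelty also releases glucocorticoid hormone, which has its own target genes.

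The 6 libraries held between 16 M and 31.4 M counts in genes. Of 47069 gene identifiers in the files, 16392 passed the filter on low counts and were tested. All marker genes of dentate gyrus granule cells, CA1, CA2 and CA3 on the lists were detected in every library. Among the libraries labelled KO, untreated library 2 stood apart in its choroid plexus markers, with a summed level of 660.6 CPM against 45.0 to 91.2 CPM in the other 11 libraries. Without it, 44 genes rose and 5 fell in the wild type, instead of the 57 and 6 given next. Levels are given as CPM, a gene's counts divided by the scaled total of its library in units of 1 M. They are not corrected for gene length and are compared here only within a gene.

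At the adjusted threshold, exposure to novelty was followed by a small set of changes, nearly all of them increases. By edgeR's quasi-likelihood test at an adjusted p under 0.05, 57 genes rose, which is 0.348% of the genes tested, and 6 fell, which is 0.0366%. In all 63 genes the 3 novelty libraries lay on one side of the 3 untreated libraries. That separation on its own is common, since 8.3% of all genes tested had every novelty library above every untreated one and 7.7% had every one below. The rises were modest, with a median of 0.65 on the log2 scale (1.57-fold), and 26 of the 57 were smaller than 1.5-fold. Only 9 genes rose by more than 2-fold. The median over all genes tested was −0.00, and 49.3% of them had a positive value. At an unadjusted p under 0.05 in the same edgeR test, 923 genes were higher and 874 lower. DESeq2 called 169 higher and 49 lower at its adjusted p. The predominance of rises thus belongs to the called genes and varied with the tool.

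**Figure D1:**
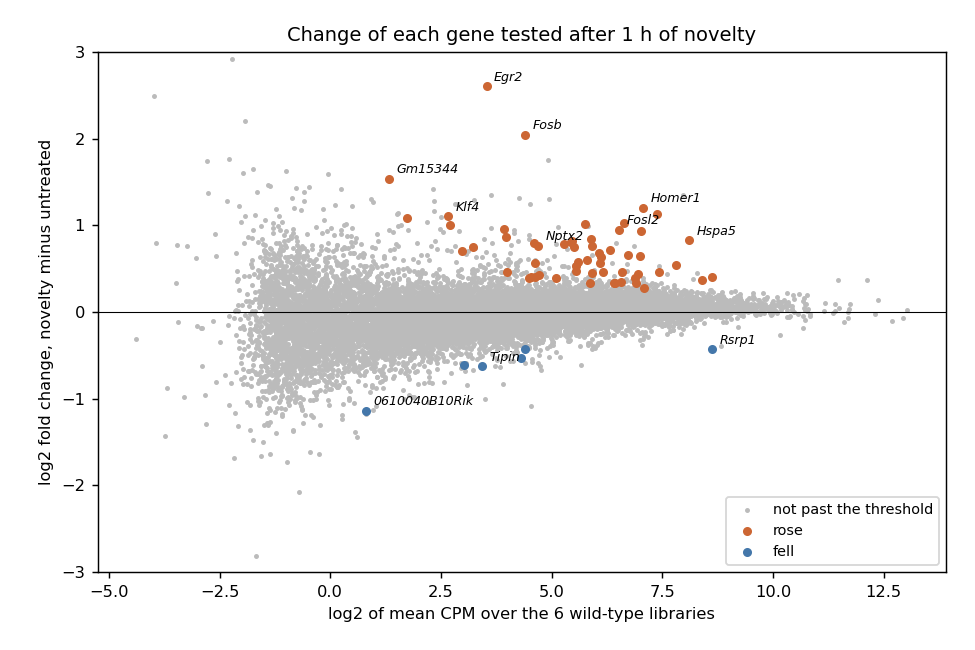
Each point is 1 gene tested, with the log2 of its mean CPM over the 6 wild-type libraries on the x axis and the log2 fold change (novelty minus untreated) on the y axis; orange genes rose, blue genes fell and grey genes did not pass the threshold. Among the called genes rises outnumber falls, and Egr2 and Fosb stand highest. Not drawn is 1 tested gene with no count in any wild-type library.

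These counts moved with single libraries. Without untreated library 1, 2 or 3 in turn, the number of genes that rose was 5, 15 and 8, and without novelty library 3 it was 4. Leaving out 1 of the libraries labelled KO also moved it, to 29 without untreated KO library 1, 14 without untreated KO library 3, 26 without novelty KO library 1 and 86 without novelty KO library 2. The number that fell was 0 or 1 in all of these fits but the last, where it was 15, and it was 17 without novelty library 1. Libraries also differed along GC content. The rank correlation of a library's deviations with the GC content of genes, a description across genes, was 0.562, −0.446 and −0.179 in the 3 novelty libraries and −0.177, 0.27 and −0.116 in the untreated ones. With offsets for GC content and length, 267 genes rose and 73 fell, so that 78.5% of the calls were rises instead of 90.5%, and 62 of the 63 genes remained called.

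The immediate early transcription factors had the highest median of the 29 gene lists considered, which were chosen with earlier results of these data known. Of 27 factors listed, 26 were tested and 10 rose, against 0.348% of all genes. These 10 were Egr1, Egr2 and Egr3, zinc finger factors that bind GC-rich sites; Fosb and Fosl2, which pair with Jun proteins as the AP-1 factor; the orphan nuclear receptors Nr4a1, Nr4a2 and Nr4a3; the zinc finger factor Klf4; and the clock repressor Per1. The median over the 26 factors was 0.86 on the log2 scale, and 23 were positive, beside 49.3% of all genes tested. In 20 of the 26 the novelty libraries all lay above the untreated ones, beside 8.3% of all genes.

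Egr2 (chr10:67535475-67542188 in GRCm38) stood at 0.987, 5.07 and 3.40 CPM in the 3 untreated libraries and at 19.9, 18.5 and 21.7 CPM after novelty. The groups were far apart, and untreated library 1 was the lowest. The log2 fold change was 2.60 ± 0.36 (SE), with an adjusted p of 0.00973 by edgeR's quasi-likelihood test, the largest rise among the called genes. Fosb (chr7:19302696-19310051) stood at 4.93, 10.99 and 8.53 CPM untreated and at 32.1, 32.0 and 38.7 CPM after novelty. Its novelty libraries were close to each other and all above the untreated ones, with a log2 fold change of 2.05 ± 0.25 and an adjusted p of 0.00487 in the same test.

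Fosl2 (chr5:32135801-32157842) had the smallest adjusted p of all genes, 0.000665 by edgeR's quasi-likelihood test. It stood at 60.2, 66.0 and 62.7 CPM untreated and at 125.6, 111.9 and 127.8 CPM after novelty, a log2 fold change of 0.95 ± 0.09. Both groups were tight, which sets it apart from Egr2, whose untreated libraries spread widely. Egr1 stood at 71.8, 127.8 and 113.0 CPM untreated and at 227.1, 231.9 and 229.2 CPM after novelty. The 3 novelty values were nearly equal, and the untreated ones were not, with library 1 lowest. The log2 fold change of Egr1 was 1.14 ± 0.20 (adjusted p 0.0345), and that of Egr3 was 0.78 ± 0.13 (adjusted p 0.0284).

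Among the orphan receptors, Nr4a3 (chr4:48045153-48086447) stood at 76.7, 90.2 and 100.9 CPM untreated and at 141.3, 177.1 and 195.0 CPM after novelty. Nr4a1 stood at 44.8, 85.5 and 64.6 CPM untreated and at 135.3, 126.5 and 136.9 CPM after novelty. Nr4a2 stood at 61.6, 52.7 and 48.8 CPM untreated and at 73.2, 81.3 and 99.0 CPM after novelty. All 3 had groups that did not overlap, but untreated library 1 was the lowest for Nr4a1 and Nr4a3 and the highest for Nr4a2. Their log2 fold changes were 0.94 ± 0.12, 1.03 ± 0.20 and 0.64 ± 0.12, in the order Nr4a3, Nr4a1 and Nr4a2. Klf4 rose from 3.08, 5.56 and 3.36 CPM to 6.95, 9.01 and 10.2 CPM, a log2 fold change of 1.10 ± 0.21 (adjusted p 0.0469, edgeR).

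**Figure D2:**
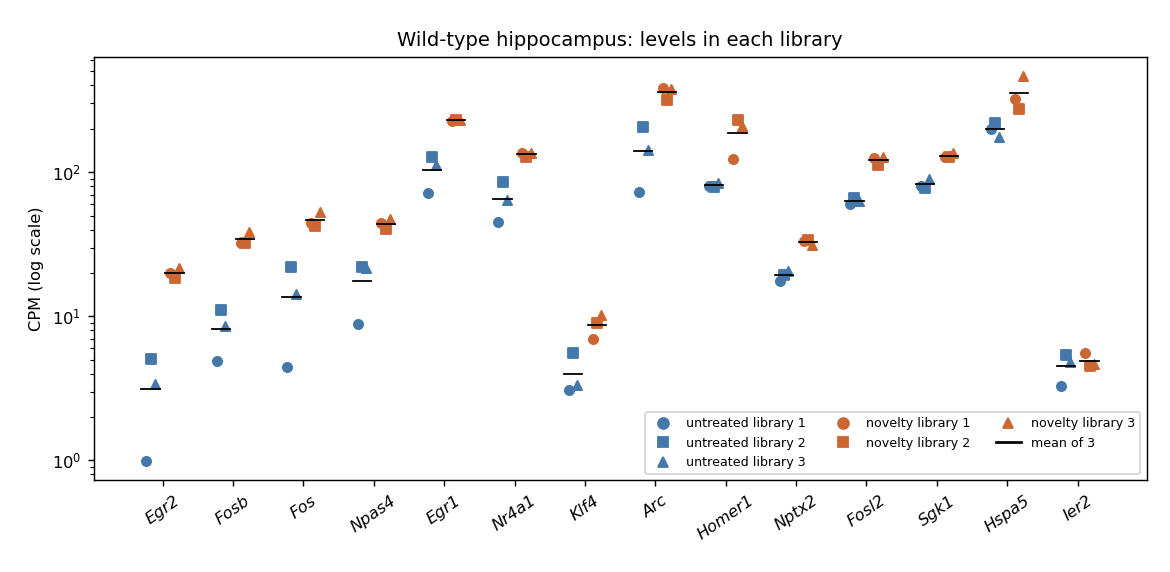
CPM (log scale) of 14 genes in each of the 6 wild-type libraries, blue for untreated and orange for novelty, with a marker shape per library and a bar for the mean of 3. The novelty libraries lie above the untreated ones for every gene shown except Ier2, and untreated library 1 is the lowest for most of the early factors.

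Several of the best known activity genes were higher in every novelty library and did not pass the threshold by edgeR. This depended on the tool and the setting. DESeq2 called 15 of the 26 early factors higher, beside 169 of the 16392 genes tested. Of the 22 alternative settings, Fos passed in 7, Npas4 in 6, Arc in 5, Egr4 in 4 and Junb in 3. Fos, the founding member of the AP-1 family, stood at 4.44, 22.03 and 14.2 CPM untreated and at 44.7, 42.4 and 53.1 CPM after novelty. The groups were clear of each other, yet on a log scale the untreated libraries differed among themselves by more than the gap between the groups, and the adjusted p was 0.0536 (log2 fold change 1.75 ± 0.35). Npas4, a neuron-specific factor that responds to calcium, stood at 8.88, 22.1 and 21.5 CPM untreated and at 44.5, 40.4 and 47.1 CPM after novelty, with an adjusted p of 0.0570 by edgeR. Junb stood at 22.2, 48.4 and 42.5 CPM untreated and at 87.2, 67.4 and 72.5 CPM after novelty (adjusted p 0.101). For Egr4 the values were 5.86, 15.1 and 11.7 CPM untreated and 33.0, 25.3 and 24.4 CPM after novelty (adjusted p 0.107). These genes share the low value of untreated library 1. Jun, Jund, Myc, Klf6, Ier2 and Ier5 had log2 values between −0.12 and 0.23, and Ier2 overlapped between the groups, at 3.27, 5.43 and 4.83 CPM untreated and 5.53, 4.55 and 4.65 CPM after novelty.

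The effector genes of the early program had the next highest median. Of 23 effectors listed, 22 were tested and 7 rose by edgeR, again against 0.348% of all genes. DESeq2 called 13 of the 22 higher, beside 169 of the 16392 genes tested. All 22 had a positive value, with a median of 0.60 on the log2 scale. Nptx2 (chr5:144545902-144557478), a secreted pentraxin that gathers AMPA receptors at synapses, stood at 17.7, 19.4 and 20.7 CPM untreated and at 33.3, 33.8 and 31.3 CPM after novelty. Both groups were tight, and the log2 fold change was 0.77 ± 0.09 (adjusted p 0.00487, edgeR). Gadd45b (chr10:80930073-80932204), a stress and DNA demethylation factor, went from 8.08, 10.9 and 11.7 CPM to 19.1, 20.6 and 20.5 CPM, a log2 fold change of 0.96 ± 0.13. Errfi1, a feedback inhibitor of the EGF receptor, went from 40.7, 48.5 and 43.2 CPM to 65.9, 65.4 and 69.0 CPM, a log2 fold change of 0.60 ± 0.07.

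Homer1 (chr13:93299635-93405129), whose short activity-induced form competes with the scaffold form at the synapse, stood at 80.6, 78.6 and 84.4 CPM untreated and at 122.7, 230.1 and 208.3 CPM after novelty. Its untreated values were tight and its novelty values were not, with novelty library 1 well below the other 2. The log2 fold change was 1.203 ± 0.213 (adjusted p 0.0340, edgeR), and counts per gene do not separate the short form from the long ones. Arl5b, a small GTPase of the Arf family, had the same order, from 30.3, 28.9 and 34.7 CPM to 40.1, 66.0 and 58.8 CPM. Both transcripts are low in GC content, at 36.9% for Homer1 and 39.8% for Arl5b, beside a median of 49.6%. Novelty library 1 had the highest correlation with GC content of all libraries, 0.562. The part of GC content in this order was not tested. Trib1, a pseudokinase, and Siah2, a ubiquitin ligase, rose by 0.87 ± 0.15 and 0.46 ± 0.09 on the log2 scale. Arc, which shapes AMPA receptor traffic, stood at 73.1, 204.6 and 143.7 CPM untreated and at 385.1, 318.1 and 377.2 CPM after novelty. The Arc groups did not overlap, but the untreated libraries spanned a wide range, and its adjusted p was 0.0887. Bdnf, a growth factor for neurons, stood at 37.7, 35.2 and 40.6 CPM untreated and at 43.5, 58.5 and 54.1 CPM after novelty (adjusted p 0.0850, edgeR).

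Factors and effectors together gave 48 tested genes, of which 17 rose and 31 did not pass. Of those 31, 17 still had every novelty library above every untreated one, against 8.3% of all genes. Their summed level was 1536, 1977 and 1839 CPM in the untreated libraries and 2836, 2905 and 3070 CPM after novelty. Untreated library 1 was the lowest untreated library in 35 of the 48, against 34.9% of all genes tested, and untreated library 2 the highest in 29, against 38.8%. The early genes spread more among the untreated pools than among the novelty pools, with a median SD of 0.23 against 0.15 on the log2 scale, while over all genes the order was the opposite, at 0.10 against 0.14. What set the level of these genes in the untreated pools was not tested. The number of these 48 genes that rose was 5, 10 and 6 without untreated library 1, 2 and 3, 9 without novelty library 2 and 4 without novelty library 3. It was 10, 7, 7 and 11 without the libraries labelled KO untreated 1, KO untreated 3, KO novelty 1 and KO novelty 3.

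The promoters of the rising early genes are shown because these genes moved together and the cAMP response element, bound by the activity-regulated factor CREB, is a known feature of this class. RefSeq windows from 250 bases before to 50 bases after the most upstream start (assembly GRCm38.p6) were at hand for 12 of the 17. Nptx2, Egr1, Egr3, Trib1 and Siah2 had no window and were not searched. The 250 bases before the start are printed below, 5′ to 3′ on the gene's strand, for the 6 with the smallest p, with matches to the searched motifs in capitals. They lie at chr5:32136222-32136471 (plus strand) for Fosl2, chr4:150853546-150853795 (plus) for Errfi1, chr7:19310046-19310295 (minus) for Fosb, chr4:48045055-48045304 (plus) for Nr4a3, chr10:80929841-80930090 (plus) for Gadd45b and chr10:67535249-67535498 (plus) for Egr2.
Fosl2: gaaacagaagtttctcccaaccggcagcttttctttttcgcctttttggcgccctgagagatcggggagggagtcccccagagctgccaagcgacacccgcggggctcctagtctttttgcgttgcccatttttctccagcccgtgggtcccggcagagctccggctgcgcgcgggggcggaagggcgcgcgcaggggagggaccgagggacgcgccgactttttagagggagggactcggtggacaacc
Errfi1: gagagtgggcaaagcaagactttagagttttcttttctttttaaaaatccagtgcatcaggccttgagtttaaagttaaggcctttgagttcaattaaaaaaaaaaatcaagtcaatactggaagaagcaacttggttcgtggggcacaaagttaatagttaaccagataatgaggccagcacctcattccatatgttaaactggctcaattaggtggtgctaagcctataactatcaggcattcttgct
Fosb: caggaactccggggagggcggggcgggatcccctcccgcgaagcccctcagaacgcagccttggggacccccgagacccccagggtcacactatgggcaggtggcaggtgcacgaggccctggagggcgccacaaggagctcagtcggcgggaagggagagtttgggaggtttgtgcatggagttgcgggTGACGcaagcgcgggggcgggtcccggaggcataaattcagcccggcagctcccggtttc
Nr4a3: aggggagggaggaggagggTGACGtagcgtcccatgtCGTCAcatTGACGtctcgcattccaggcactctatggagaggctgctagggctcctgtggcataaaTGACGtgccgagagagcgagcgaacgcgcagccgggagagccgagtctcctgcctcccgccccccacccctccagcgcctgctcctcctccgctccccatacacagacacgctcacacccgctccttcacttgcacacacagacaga
Gadd45b: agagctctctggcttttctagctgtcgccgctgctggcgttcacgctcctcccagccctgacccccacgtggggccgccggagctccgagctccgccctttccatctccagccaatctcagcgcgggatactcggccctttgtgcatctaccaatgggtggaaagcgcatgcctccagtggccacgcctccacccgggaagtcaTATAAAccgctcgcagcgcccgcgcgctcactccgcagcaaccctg
Egr2: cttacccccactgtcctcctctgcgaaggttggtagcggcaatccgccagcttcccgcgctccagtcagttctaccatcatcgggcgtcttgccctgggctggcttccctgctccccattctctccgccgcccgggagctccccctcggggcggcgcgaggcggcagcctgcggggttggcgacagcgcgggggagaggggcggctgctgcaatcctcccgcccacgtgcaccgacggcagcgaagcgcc
In capitals are the TGACG core of the cAMP response element, read on either strand and so also as CGTCA, in Fosb and Nr4a3, and the TATAAA box in Gadd45b. The core starts 60 bases before the start in Fosb. In Nr4a3 it is found 4 times, at 231, 213, 205 and 147 bases before the start. No searched motif was found in the printed windows of Fosl2, Errfi1 and Egr2. Egr2 has 5 listed starts and Errfi1 has 2, and only the most upstream of each was searched.

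Over the 300-base windows, the TGACG core was present in 8 of the 12 rising early genes (66.7%) and in 15 of the 25 early genes with a window that did not pass the threshold (60%). It was present in 10 of 30 other rising genes (33.3%) and in 30.2% of all 11970 tested genes with a window. The full element TGACGTCA, each match of which also holds the core on both strands, was found in 1 of the 12, Arl5b, against 3.12% of all windows. TATAAA was found in Gadd45b and Nr4a2, against 7.16%. The Egr site GCGTGGGCG (1.19% of all windows), the AP-1 site TGANTCA (4.83%) and the CArG box of serum response factor (1.34%) were found in 0 of the 12 windows, all searched on both strands. With shares this low over all windows, 0 of 12 cannot show a lack of these motifs in the early genes. A match of this kind describes the letters of a window and not a bound site.

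Negative regulators of the MAP kinase cascade, which the same signal switches on, included 2 rises among 13 tested, with a median of 0.27 on the log2 scale. These were Dusp6 and Dusp5, phosphatases that inactivate ERK. Across all genes 0.348% rose by edgeR. DESeq2 called 4 of the 13 higher, beside 169 of the 16392 genes tested. Dusp6 (chr10:99263231-99267489) stood at 38.04, 48.5 and 47.5 CPM untreated and at 69.6, 76.4 and 82.8 CPM after novelty. Its groups did not overlap, and the log2 fold change was 0.77 ± 0.11 (adjusted p 0.0149, edgeR). Dusp5 had a log2 fold change of 0.79 ± 0.13. Dusp1 had a value of 0.84 ± 0.21, with 10.4, 20.8 and 16.9 CPM untreated and 31.0, 23.1 and 32.9 CPM after novelty, and did not pass (adjusted p 0.119).

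Genes of the later activity program, which follow the early factors in time, gave no call at 1 h. Of 32 tested, 0 passed by edgeR's quasi-likelihood test, and 10 had a higher value at an unadjusted p under 0.05, beside 923 of the 16392 genes tested. DESeq2 called 3 of the 32 higher, beside 169 of all genes. The median of the 32 was 0.17 on the log2 scale, and 29 were positive. The closest to the threshold, named after their values were seen, were Gpr3, a receptor with constitutive activity (adjusted p 0.0511), and the factor Nfil3 (adjusted p 0.0578, edgeR). The receptors, channels and kinases that carry the activity signal itself also gave 0 of 46 by either tool, with a median of 0.08, and 4 higher and 1 lower at an unadjusted p under 0.05.

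Some glucocorticoid targets rose as well. Of 18 tested, 5 rose, beside 0.348% of all genes: Sgk1, a kinase that acts on ion channels, Tsc22d3, an anti-inflammatory leucine zipper protein, the cell cycle inhibitor Cdkn1a, and Per1 and Errfi1, which are also on the early lists. Sgk1 (chr10:21882184-21999903) stood at 80.3, 77.3 and 89.1 CPM untreated and at 127.2, 127.8 and 135.9 CPM after novelty. The 3 novelty libraries were close together and clear of the untreated ones, with a log2 fold change of 0.66 ± 0.08 (adjusted p 0.00585, edgeR). Tsc22d3 went from 63.4, 61.2 and 55.4 CPM to 110.6, 83.5 and 101.4 CPM, a log2 fold change of 0.72 ± 0.11. Cdkn1a went from 5.92, 5.52 and 6.38 CPM to 9.46, 9.88 and 9.82 CPM, a log2 fold change of 0.71 ± 0.11. None of these 3 genes had its lowest value in untreated library 1. Fkbp5, a chaperone of the glucocorticoid receptor, stood at 79.2, 78.9 and 78.1 CPM untreated and at 97.3, 89.3 and 83.5 CPM after novelty, and did not pass (adjusted p 0.349). The metallothioneins Mt1 and Mt2 had log2 values of −0.03 and −0.01. The median over the 18 genes was 0.25.

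Among 18 clock genes, Per1 and Per2, the repressors of the core loop, rose, which is 2 of 18 beside 0.348% of all genes. Per2 (chr1:91415982-91459324) stood at 47.9, 53.7 and 52.9 CPM untreated and at 77.2, 83.5 and 87.0 CPM after novelty, with a log2 fold change of 0.68 ± 0.09 (adjusted p 0.00973, edgeR). Per1 stood at 82.9, 113.1 and 100.5 CPM untreated and at 165.6, 144.6 and 156.2 CPM after novelty, a log2 fold change of 0.65 ± 0.12. The groups of both genes were apart. The activators Arntl and Clock had log2 values of −0.10 and 0.17, the output factor Dbp had −0.14, and the median of the list was 0.11.

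**Figure D3:**
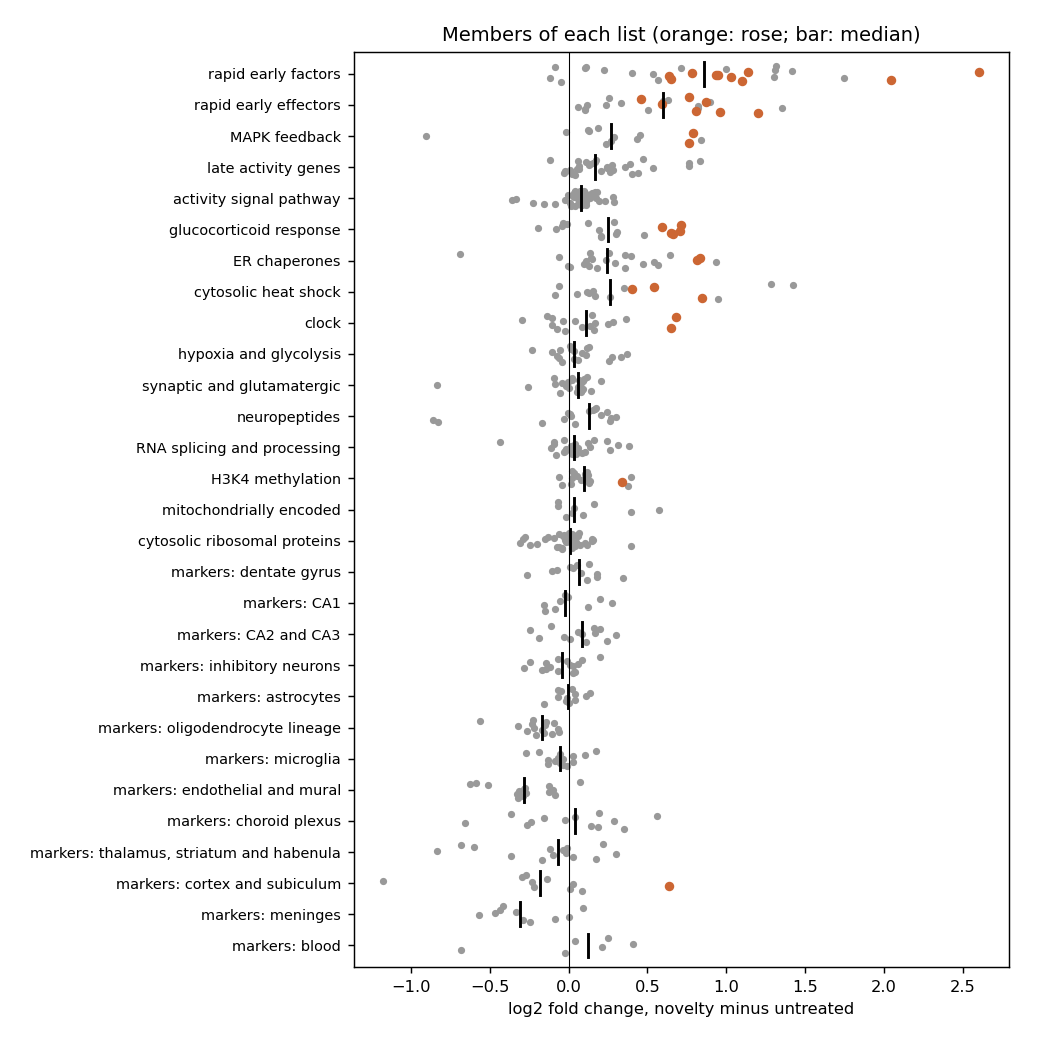
The log2 fold change (x axis, novelty minus untreated) of every tested member of the 29 gene lists, 1 list per row, orange where the gene rose and grey otherwise, with a bar at the list's median. The 2 early lists stand furthest to the right, with medians of 0.86 and 0.60, and the lists with the lowest medians are the meningeal, endothelial and mural, cortex and subiculum, and oligodendrocyte markers, between −0.31 and −0.17.

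Most chaperones of the endoplasmic reticulum had positive values, with a median of 0.25. Of 24 tested, 2 rose by edgeR, beside 0.348% of all genes, and 6 were called higher by DESeq2, beside 169 of the 16392 genes tested. Of the 24, 21 were positive, and in 13 the groups did not overlap, beside 8.3% of all genes. Hspa5 (chr2:34771970-34777547), the major Hsp70 chaperone of that compartment, stood at 198.0, 221.2 and 175.1 CPM untreated and at 320.8, 275.4 and 461.8 CPM after novelty. Its log2 fold change was 0.83 ± 0.15 (adjusted p 0.0387, edgeR). Pdia4, a protein disulfide isomerase, went from 31.0, 31.8 and 33.2 CPM to 53.0, 43.7 and 72.7 CPM, a log2 fold change of 0.81 ± 0.16. For both genes novelty library 3 was the highest and novelty library 2 the lowest of the novelty libraries. The secreted factor Manf (adjusted p 0.0532) and the stress factor Xbp1 (adjusted p 0.0511, edgeR) came close to the threshold in the same order of libraries, both named after their values were seen. The markers of unresolved stress Trib3, Chac1 and Ddit3 had log2 values of −0.69, −0.06 and 0.24, with Trib3 under 1 CPM in every library.

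Cytosolic heat shock genes gave 3 rises by edgeR among 15 tested, beside 0.348% of all genes, with a median of 0.26. DESeq2 called 5 of the 15 higher, beside 169 of the 16392 genes tested. Dnajb1, a co-chaperone of Hsp70, stood at 39.9, 47.7 and 39.0 CPM untreated and at 81.6, 57.4 and 89.3 CPM after novelty, a log2 fold change of 0.85 ± 0.13 (adjusted p 0.0209, edgeR). Hsph1 went from 333.9, 343.6 and 348.4 CPM to 432.2, 406.8 and 519.5 CPM, and Dnajb5 from 171.6, 192.0 and 183.8 CPM to 264.7, 258.6 and 275.2 CPM. In all 3 novelty library 3 was the highest and novelty library 2 the lowest. Hspa1a and Hspa1b, near-identical copies between which reads cannot be divided with certainty, had log2 values of 1.28 and 1.42 at under 11 CPM and did not pass (adjusted p 0.0727 and 0.0536).

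The targeted gene of the series also rose in the wild type. Kdm5c (chrX:152233020-152274535), a demethylase that removes methyl groups from lysine 4 of histone H3, stood at 75.4, 74.2 and 76.4 CPM untreated and at 100, 90.2 and 96.0 CPM after novelty. The untreated libraries were nearly equal and all below the novelty ones, with a log2 fold change of 0.34 ± 0.06 (1.27-fold, adjusted p 0.0387, edgeR). It was the single rise among 17 tested genes for enzymes of this mark and their partners, whose median was 0.10, while 0.348% of all genes rose. Its relatives Kdm5a and Kdm5b had log2 values of 0.10 and 0.11, and the methyltransferases Kmt2a and Kmt2c had 0.38 and 0.40 with larger errors (SE 0.14 and 0.22).

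Other groups gave 0 calls by edgeR. Hypoxia and glycolysis genes (19 tested), synaptic and glutamatergic genes (27), neuropeptides (17), splicing factors (24), mitochondrially encoded genes (9) and cytosolic ribosomal proteins (37) had medians between 0.01 and 0.13 on the log2 scale. At an unadjusted p under 0.05 they held, in that order, 3, 1, 0, 3, 0 and 1 higher genes and 0, 2, 1, 1, 0 and 1 lower ones. DESeq2 called 2 hypoxia and glycolysis genes and 1 splicing factor higher, and 1 synaptic gene and 1 splicing factor lower. Over all genes tested DESeq2 called 169 higher and 49 lower.

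Beyond the lists, 28 rising genes belonged to no functional group considered here, and 3 of them (Gm15344, Alkal2 and Tnfrsf25) rose by over 2-fold. The non-coding transcript Gm15344 (chr10:86692119-86693095) went from 1.48, 1.29 and 1.09 CPM to 3.31, 3.55 and 4.32 CPM, a log2 fold change of 1.54 ± 0.21. It lies within Hsp90b1 on the same strand and overlaps 1810014B01Rik on the other strand, so its reads are uncertain, and Hsp90b1 itself had a log2 value of 0.13. Alkal2, a ligand of the receptors Alk and Ltk, rose from 1.67, 1.82 and 2.77 CPM to 3.82, 4.68 and 5.07 CPM. The kinase Map3k19 rose from 3.64, 4.89 and 4.37 CPM to 7.46, 8.66 and 9.96 CPM, and the death receptor Tnfrsf25 from 28.6, 39.1 and 38.7 CPM to 69.8, 72.8 and 73.6 CPM. The groups of these genes were all apart, and the adjusted p of Alkal2, Map3k19 and Tnfrsf25 ran from 0.0209 to 0.0476 by edgeR.

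The other 24 on no list, given here after their values were seen, are described by 6 examples. Gpt2, an alanine aminotransferase, stood at 84.0, 82.0 and 78.8 CPM untreated and at 113.3, 109.1 and 113.9 CPM after novelty. The insulin receptor substrate Irs2 went from 37.3, 40.9 and 38.1 CPM to 61.6, 49.7 and 62.4 CPM. The groups of both genes did not overlap. Slc5a3, a myo-inositol transporter, was at 33.7, 33.6 and 33.9 CPM untreated and at 46.0, 58.3 and 66.7 CPM after novelty, so that nearly all of its spread lay in the novelty group. It shares its locus and strand with Mrps6, and its reads may be divided between them. Ago2, the slicing Argonaute of the miRNA pathway, was at 147.6, 133.3 and 150.8 CPM untreated and at 200.3, 202.2 and 193.5 CPM after novelty. The survival factor Mcl1 and the cyclin Ccnd2 were also among the 24.

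The 6 genes that fell had a median log2 fold change of −0.57. Tipin, a replication fork protein, stood at 12.9, 13.6 and 12.6 CPM untreated and at 8.58, 9.01 and 7.68 CPM after novelty. It fell by 0.62 ± 0.09 on the log2 scale (adjusted p 0.0149, edgeR). Rsrp1, an arginine and serine rich protein, stood at 473.0, 441.5 and 453.7 CPM untreated and at 321.1, 382.6 and 310.8 CPM after novelty, a log2 fold change of −0.43 ± 0.07. Abhd14b, a hydrolase, went from 24.5, 23.7 and 22.4 CPM to 16.9, 16.2 and 15.5 CPM, and overlaps Abhd14a on the opposite strand. Nemp2, of the nuclear envelope, and Ccdc177 had log2 fold changes of −0.61 ± 0.11 and −0.42 ± 0.08. The only fall over 2-fold was that of 0610040B10Rik (chr5:143329247-143332704), an antisense transcript that overlaps Zdhhc4, from 2.84, 2.05 and 2.39 CPM to 0.945, 1.26 and 1.04 CPM. By edgeR no member of a list fell, while DESeq2 called 1 member lower in each of 6 lists (synaptic, splicing, and the oligodendrocyte, endothelial and mural, thalamus and cortex markers). Slc17a6, with a log2 value of −0.83, is on both the synaptic and the thalamus lists, so these 6 calls may hold fewer genes. Over all genes tested DESeq2 called 49 lower.

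**Figure D4:**
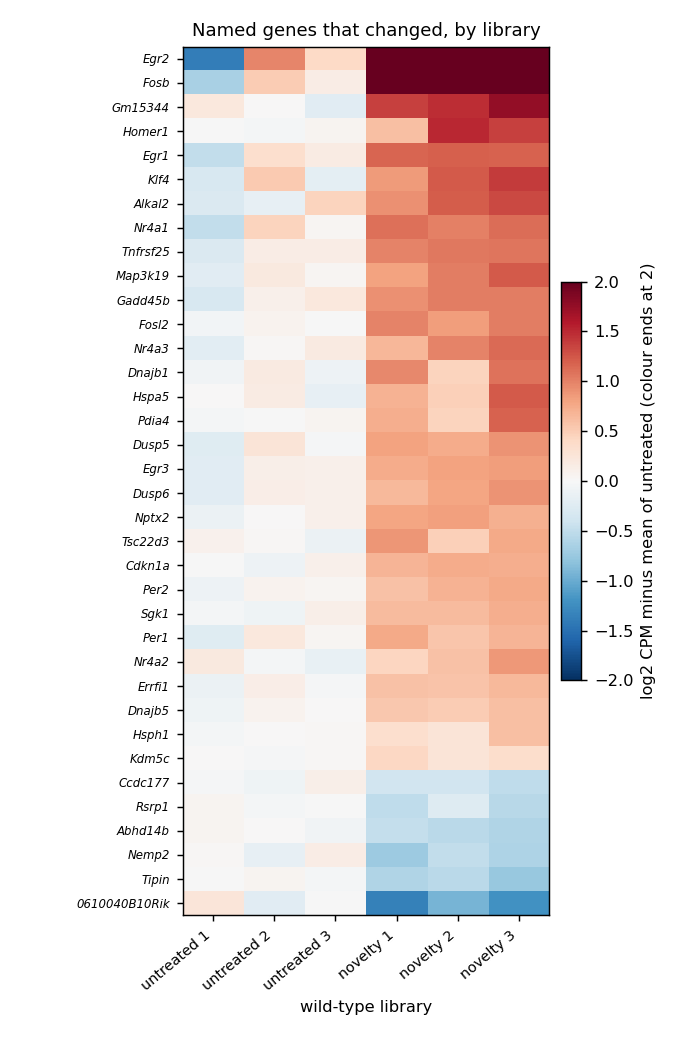
Each row is 1 of the 36 genes that changed and were named by the fixed rule, and each column 1 wild-type library, with colour for the log2 CPM minus the gene's mean over the 3 untreated libraries (the scale ends at 2). All of these genes separate the groups. Untreated library 1 is lowest for Egr2 and Fosb, and novelty library 1 is the lowest of the novelty libraries for Homer1.

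The 63 genes were also described by their annotation. Of them 61 were protein coding, beside 88.6% of the genes tested. The 17 rising early genes had a median span of 14.7 kb and the other rising genes 25.4 kb, beside 22.5 kb over all genes tested. The median GC content of the transcripts was 50.6% in the rising genes, 46.9% in the 6 that fell and 49.6% over all genes. Of the 63, 11 overlap another annotated gene on the same strand and 19 overlap one on the opposite strand, so that the division of reads between them is uncertain.

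Markers of oligodendrocytes and of blood vessels had summed levels that were lower after novelty, and 0 of their members passed the threshold by edgeR. All 15 oligodendrocyte lineage markers had negative values, with a median of −0.17. Their summed level was 4426 to 4878 CPM in the untreated libraries and 3766 to 4271 CPM after novelty, without overlap. Of 15 endothelial and mural markers 14 were negative, with a median of −0.28, and their summed level was 546.2 to 615.9 CPM against 450.1 to 511.3 CPM. Meningeal markers had a median of −0.31, with 8 of 10 negative and sums that overlapped, at 165.0 to 243.2 CPM and 124.7 to 204.1 CPM. At an unadjusted p under 0.05 by edgeR, 4 oligodendrocyte, 5 endothelial and mural and 0 meningeal markers were lower, beside 874 of all 16392 genes tested. DESeq2 called 1, 1 and 0 of them lower, beside 49 of all genes. After novelty in the libraries labelled KO, the 3 medians were 0.01, −0.08 and 0.09, with 8 of 15, 4 of 15 and 7 of 10 positive. In pooled tissue, fewer cells of a type and less RNA per cell cannot be told apart. The part of these wild-type shifts in the changes above was not tested. Medians for granule cell, CA1, CA2 and CA3, inhibitory neuron, astrocyte and microglia markers lay between −0.05 and 0.08. The lists for choroid plexus, thalamus with striatum and habenula, cortex with subiculum, and blood had medians between −0.18 and 0.12, and the 1 call among them by edgeR was Nr4a2, which is also an early factor; DESeq2 called 1 more gene lower in the thalamus list and 1 in the cortex list. Among the neuronal lists only that of CA2 and CA3 had summed levels that did not overlap, at 467.8 to 516.5 CPM untreated and 524.1 to 539.5 CPM after novelty.

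The same exposure in the libraries labelled Kdm5c KO gives an independent set of mice, though the fit and its spread are shared. In those libraries Kdm5c itself was counted at 75.4 to 76.3 CPM untreated and 77.8 to 86.5 CPM after novelty, close to the untreated wild type. Gene-level counts do not resolve which exons were deleted, so this level does not check the label. After novelty 18 genes rose in them, which is 0.11% of genes tested, and 0 fell by edgeR, with 607 higher and 493 lower at an unadjusted p under 0.05 and 61 rises and 9 falls by DESeq2. Of the 57 genes that rose in the wild type, 12 also rose there, which is 21.1% of the wild-type list and 66.7% of the other. All 63 wild-type changes had the same sign, beside 61.3% of all genes tested, and 49 of the 57 rises had groups that did not overlap, beside 8.6%, as had the 6 falls, beside 6.35%. Their median was 0.43 on the log2 scale, against 0.65 in the wild type, and 51 of the 57 were smaller. Without untreated KO library 2, which held the high choroid plexus markers, 1 gene rose there, Fosl2, the 63 genes kept their sign, and the median was 0.38. The count of 18 also moved to 2, 1 and 1 without KO untreated 1, KO untreated 3 and KO novelty 1, to 9 and 10 without KO novelty 2 and KO novelty 3, and to 7, 8 and 6 without wild-type untreated 1, 2 and 3. Without wild-type novelty 1, 2 and 3 the rises in KO numbered 24, 12 and 19, and the falls 3, 1 and 1. Without KO novelty 2, 62 of the 63 signs were the same. Since the genes were chosen by their wild-type values, a smaller value in the other set is favoured by the choice. Of all 48 early genes tested, called or not, 36 had a larger value in the wild type, beside 49.4% of all genes tested. In the libraries labelled KO the median was 0.54 for the factors and 0.44 for the effectors, against 0.86 and 0.60. Glucocorticoid targets went the other way, with 6 of 18 larger in the wild type. What set these differences was not tested.

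**Figure D5:**
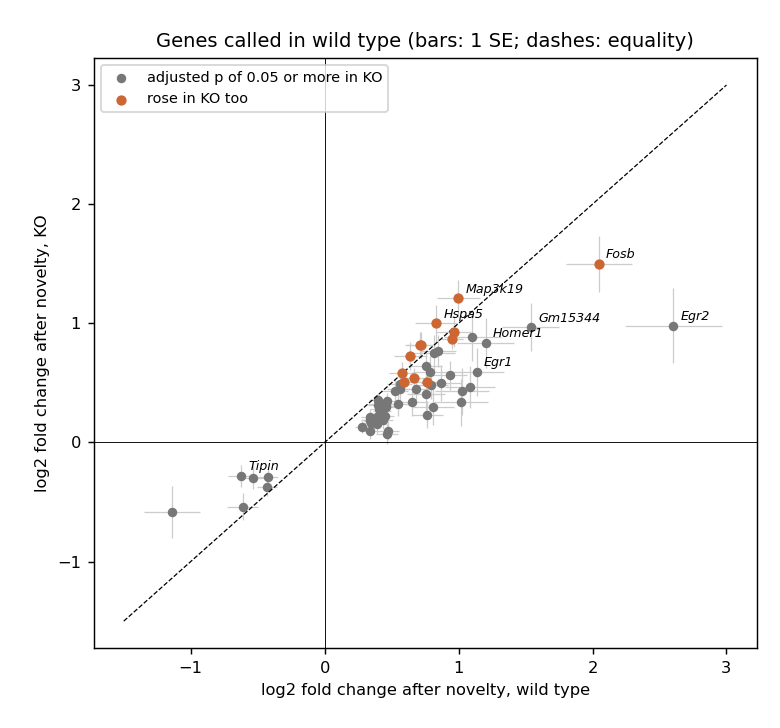
The log2 fold change after novelty of the 63 genes called in the wild type (x axis) against that in the libraries labelled KO (y axis), with bars of 1 SE, a dashed line of equal change and orange for the 12 genes that rose in both. All 63 lie on the same side of 0 in both, and 51 of the 57 rises lie below the dashed line.

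The difference between the 2 responses was tested directly, and 0 of 16392 genes passed (smallest adjusted p 0.9999, edgeR's quasi-likelihood test); at an unadjusted p under 0.05 there were 334 genes with a higher and 229 with a lower value in the libraries labelled KO, and DESeq2 also called 0. Leaving out any single library also gave 0 in either direction. Only a single pair of libraries was left out together, so what other pairs would give was not tested. Without novelty library 1 of the wild type and novelty library 2 of the KO, 29 genes had a higher and 302 a lower response in KO. The novelty libraries kept in that fit had GC content correlations of −0.446 and −0.179 in the wild type and 0.195 and 0.436 in KO. In that fit genotype and GC content therefore run together, and what set the count was not tested. The smallest unadjusted p among the genes named here was that of Egr2, 0.00474. Egr2 stood at 12.2, 4.76 and 10.1 CPM in the untreated libraries labelled KO and at 19.4, 17.2 and 18.1 CPM after novelty, with groups that did not overlap. Its log2 fold change was 0.98 ± 0.32 there against 2.60 ± 0.36 in the wild type, a difference of −1.62 ± 0.48. Fosl2 and Gadd45b had log2 fold changes of 0.87 ± 0.09 and 0.93 ± 0.13 in the libraries labelled KO, beside 0.95 and 0.96 in the wild type. Hspa5 and Cdkn1a had values there of 1.00 ± 0.15 and 0.82 ± 0.11, both above the wild-type ones.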

How the data were processed

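Hippocampal RNA was sequenced from pools of 3 mice as stranded single-end reads of 50 nt, per the labels' protocols. The deposited files hold raw read counts per gene, which the authors made, per the submitters' processing notes, with STAR 2.5.0c, SAMtools 1.3 and HTSeq 0.6.1 on GRCm38. DESeq2 is also named there. The strand setting and the annotation of the counting step were not given in the sources used here. Lines for reads with no feature (14.7 to 17.2% of counted reads) or ambiguous ones (0.765 to 0.826%) were left out.

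The 12 wild-type and KO libraries were fitted with edgeR 4.0.16 (R 4.3.3, limma 3.58.1): filterByExpr (minimum count 10, minimum total 15), TMM scaling, and glmQLFit and glmQLFTest with 1 mean per group and 8 residual degrees of freedom, so that all groups share the estimate of spread. p-values were adjusted by Benjamini-Hochberg over all genes tested, with a threshold of 0.05, and the SE is the log2 fold change divided by the root of F. Nothing says how pools relate beyond their labels, so p-values measure the spread between these libraries. The script was tested on simulated data. Of 47069 identifiers, 46574 matched the GENCODE M21 annotation, from which names and coordinates come. No 2 libraries of a group were alike within counting noise (chi-square per degree of freedom at least 3.38).

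Named genes were the 12 largest rises and falls with an adjusted p under 0.05, at least 1 CPM and no overlap of the groups, up to 4 called members per list and direction, and a fixed set of known genes; further names are members of the lists or were chosen after their values were seen. The members and the gene lists were chosen with earlier results of these data known. Alternatives were DESeq2 1.42.0, RLE factors, other filters, the replicate number as a block, GC content and length offsets, a test against a fold change of 1.2, the 6 wild-type libraries alone, and each library left out. Another alternative left out novelty library 1 of the wild type together with novelty library 2 of the KO, the only pair left out. Leaving out the libraries labelled KO, and each library in turn for the KO response, was added after seeing the data.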

Additional observations from a re-analysis of the deposited data

How the results depend on the processing

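The number of genes that rose in the wild type (57 as reported) was 169 with DESeq2, 174 with no low-count filter, 267 with GC content and length offsets, 7 in the test against a fold change of 1.2, 6 with only the 6 wild-type libraries and 351 when novelty library 1 of the wild type was left out together with novelty library 2 of the KO. The number that fell (6 as reported) was 49, 78, 73, 0, 0 and 100 in the same order. Early factors that rose (10 as reported) numbered 15 with DESeq2, 20 with no filter and 18 with the offsets. They numbered 4 in the test against a fold change and 2 with the wild type alone. Early effectors that rose (7 as reported) numbered 13 with DESeq2, 15 with no filter, 14 with the offsets, 2 in the test against a fold change, 1 with the wild type alone and 11 without those 2 libraries. The wild type alone has fewer samples, and the cause of the other shifts was not tested. DESeq2 called all 63 genes again. Leaving out 1 library at a time gave 4 to 86 rises, 0 to 17 falls, 2 to 12 factors and 2 to 9 effectors. For the difference between the responses the range was 0 to 0 in either direction, but 6 higher and 2 lower genes passed with no filter, and 29 and 302 without those 2 libraries.

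Same-numbered wild-type libraries did not deviate together (correlations of −0.116, −0.192 and 0.03, with 0 of 3 untreated libraries closest to their own number). These values show no pairing by number, but with 3 libraries in a group they cannot exclude one. With the replicate number as a block, 23 genes rose, 0 fell and 3 effectors rose, and 21 of the 23 were among the reported genes. The block with GC content and length offsets gave 194 rises, 51 falls, 17 factors, 13 effectors and 1 gene with a lower response in KO.

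Of 36 named genes that passed, 3 (Fosl2, Fosb and Nptx2) passed under all 22 alternatives. No gene of these 36 changed direction. Among all named genes the direction changed in 1 case, that of Ier2, which had not passed. The log2 value of Ier2 was −0.061 without untreated library 1 and 0.24 at most, without untreated library 2. The most calls among the 36 ended without novelty library 3 (32) and untreated library 1 (31), and 0 ended without KO novelty library 2.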
